A study of Bos grunniens x Bos taurus and Bos grunniens with 12 samples.

Results

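The short predicted candidates described here are small RNAs of 18 or 19 nt in milk exosomes that matched no known miRNA and were named PC by the authors' software because the sequence around them could be folded into a hairpin. An entry was included when its name began with PC, its sequence had 18 or 19 bases and its norm value reached 10 in at least 3 of the 12 libraries, which left 138 of 823 candidates of that length and of 2263 entries in all. The norm value is the copy number of an entry multiplied by 1 correction factor per library. The norm values of these same 12 libraries chose the 138 entries, so their levels and counts are given as a description, and a candidate that reached 10 only in the group where it was high had to differ between groups.

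Small RNA was sequenced from exosomes of milk of lactating animals 4 to 5 years old, in 4 groups of 3 libraries each: Jeryak in December (Dec_JY), yak in December (Dec_Y), Jeryak in June (Jun_JY) and yak in June (Jun_Y). The Jeryak is the hybrid of yak and Jersey cattle, named cattle-yak in the sample labels, and no group had any other treatment. The comparisons ask how the candidates differ between months within a breed and between breeds within a month. By the study's account the libraries of a group came from separate animals, but the labels do not say which library belongs to which animal or whether an animal was milked in both months.

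In mammals a miRNA is cut from a hairpin precursor by Drosha and Dicer and loaded into an Argonaute protein, where the seed near its 5′ end (bases 2 to 8) pairs with target mRNAs. Milk exosomes are vesicles secreted by cells, among them the secretory epithelium of the udder, and carry miRNAs of their cells of origin together with fragments of other RNAs. Small RNAs shorter than a usual miRNA can be trimmed miRNAs or pieces of longer RNAs, and a predicted hairpin alone does not tell these apart. The role of each candidate is therefore not given. Before prediction the authors dropped reads that hit RFam, in which they count rRNA, tRNA, snRNA and snoRNA. The 138 sequences that remained were not compared here with ribosomal or other structural RNA of the host, of microbes or of feed plants. Fragments of such RNAs may be among them, and their origin was not tested.

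The sequences below carry the patterns described afterwards. They are written 5′ to 3′ with the seed in capitals, as the authors' table gives them, with T for U. The first set held June signal.
PC-5p-384_17873: cACTGTTTgtctgagtct
PC-3p-803_8871: aCTGCTGGgggtgatggcg
PC-3p-1741_4379: gCGGTGGGtccctggggc
PC-5p-4258_1795: aGTCTTCTcctgggcacca
The next pair differs in length by 1 base at the 3′ end and is 1 of 8 pairs of related candidates.
PC-3p-4437_1717: cTGAGCTGggtggggccg
PC-3p-35657_171: cTGAGCTGggtggggccgc
The last set was higher in December in 1 breed.
PC-3p-9644_763: tACCTGGTtgatcctgca
PC-5p-9685_759: cTGTGGAAccccatggcct
PC-3p-140264_27: tCATCTCGgtggaacctc

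Among themselves the 138 sequences were diverse. They held 132 distinct seeds, and 2 candidates had the seed of a cattle (bta) entry: PC-3p-59767_89 shared it with bta-miR-27a-5p_R-1 and PC-3p-148561_25 with bta-miR-2299-5p. No candidate shared a run of 14 or more bases with a bta entry. Such a run was shared with an entry named after another species by 3 candidates: PC-3p-140264_27 with pal-miR-9995-3p, PC-3p-17210_401 with mmu-mir-6236 and PC-3p-230978_14 with mmu-miR-5119. A run was also shared by 9 candidates with a candidate of 20 nt or longer, 16 formed 8 pairs with each other (2 candidates belong to both groups) and 4 shared one only with candidates of 18 or 19 nt below the threshold. The other 108 of the 138 (78.3%) shared no such run with any entry. A T at the first base, common in miRNAs, was found in 29 of the 138 short candidates (21.0%) and in 118 of the 251 tested bta entries (47.0%), whereas a first G was found in 27.5% of the short candidates and 7.17% of the bta entries. The G+C content had a median of 55.6% in the short candidates, 65.0% in the 37 tested candidates of 20 nt or longer, 56.5% in the 194 tested entries of other species and 47.6% in the bta entries. The 685 candidates of 18 or 19 nt that were not included had a first T in 20.1% and a median G+C content of 57.9%, values close to those of the 138.

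**Figure D1:**
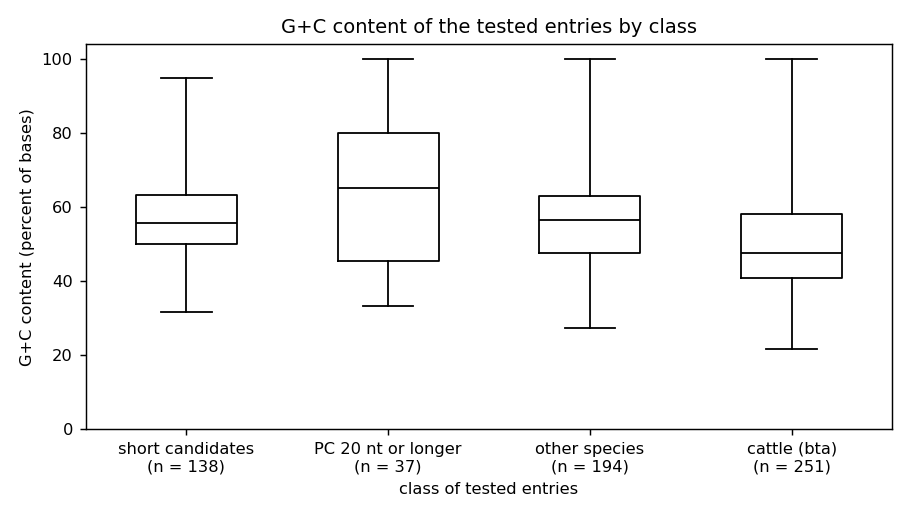
G+C content (percent of bases, y axis) of the tested entries in 4 classes (x axis): the 138 short candidates, predicted candidates of 20 nt or longer, entries of other species and cattle entries. Boxes show the quartiles and the median, and whiskers the lowest and highest entry. The median of the short candidates was 55.6%, against 47.6% in cattle entries.

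The names marked 71 candidates as 5p and 67 as 3p. By length 67 had 18 nt and 71 had 19 nt, but the threshold kept 42.1% of the 159 candidates of 18 nt and 10.7% of the 664 of 19 nt. Of the candidates of 19 nt, 522 were listed in a single library. The mean norm value over the 12 libraries had a median of 28.4 (quartiles 12.5 and 67.0) and reached 2180 for PC-5p-384_17873. A few entries held most of the signal: the highest 6 made up 48.7% of the summed mean of the 138 and the highest 20 made up 75.8%.

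The libraries differed in what a copy was worth, which bears on every count of detection. Read from the steps between the candidates' values, 1 copy was worth a norm value of 0.127 to 0.269 in December Jeryak, 0.730 to 1.86 in December yak, 1.85 to 2.47 in June Jeryak and 1.02 to 3.30 in June yak. A norm value of 10 therefore stood for 37.1 to 78.8 copies in December Jeryak, for 5.37 to 13.7 copies in December yak and for 3.03 to 9.81 copies in June. Candidates below 5 copies were rarely listed (a median of 3.60% of the listed candidate values per library, with the highest, 20.9%, in December yak replicate 3), so a listed 0 can stand for up to 4 copies. In December 5 copies were worth at most 9.32 in any library, below the threshold of 10, whereas in June they were worth 5.10 to 16.5. The threshold thus asked for the most copies in December Jeryak, while December yak overlapped June. Any batch of library making that went with the month cannot be told apart from it. The label of the tissue fitted its markers, since 13 of 13 miRNAs of milk and mammary epithelium were found in all 12 libraries, at 41.0 to 64.4% of the summed norm values. Leukocyte miRNAs made up 0.0701 to 0.915% in December Jeryak, 0.0167 to 0.0383% in December yak and at most 0.00932% in June (4 of 5 found by name, miR-223 not among them), and red cell, muscle and liver miRNAs at most 0.109%. Their part in the results was not tested.

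The short candidates were a June feature of both breeds. Together they made up 0.0691, 0.0256 and 0.0498% of the summed norm values in the December Jeryak libraries and 0.0696, 0.169 and 0.114% in the December yak libraries. In June they made up 4.14, 4.97 and 4.15% in Jeryak and 6.17, 4.14 and 4.10% in yak. Every June library lay above every December library, and the breeds did not separate in June. The group means were 0.0481% ± 0.0218 in December Jeryak, 0.117% ± 0.0496 in December yak, 4.42% ± 0.477 in June Jeryak and 4.80% ± 1.18 in June yak (SD, n = 3 each). As copies, 360 to 2449 were assigned to the 138 entries per December library and 10941 to 25434 per June library, although all entries together held 315876 to 6168480 copies in December and 247528 to 614066 in June. Candidates of 20 nt or longer also lay lower in December in Jeryak, with no overlap between the months, but not in yak. They made up 0.415 to 1.46% in December Jeryak, 1.49 to 4.99% in December yak, 1.91 to 4.16% in June Jeryak and 1.18 to 2.83% in June yak.

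**Figure D2:**
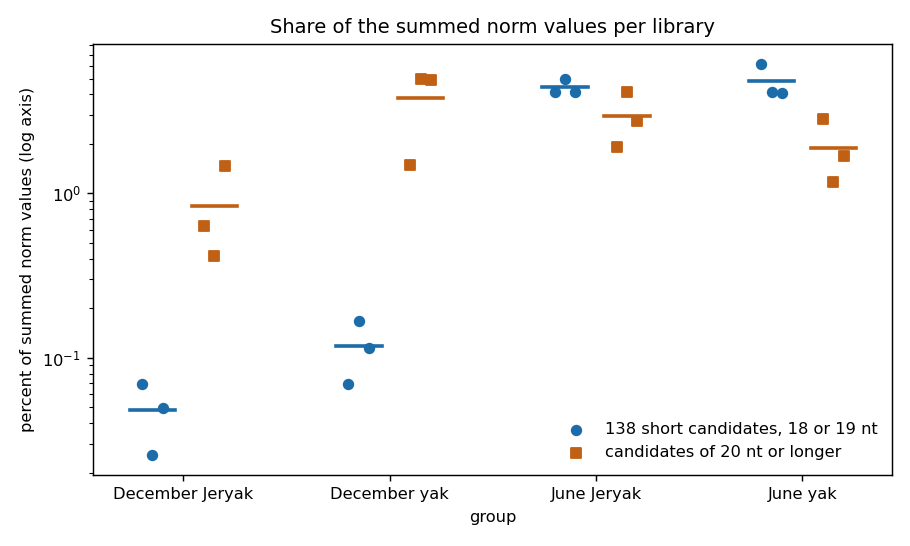
Share of the summed norm values (percent, log axis) taken by the 138 short candidates (circles) and by candidates of 20 nt or longer (squares) in each library, by group. Points are libraries and bars are group means. The short candidates lie between 0.0256 and 0.169% in the December libraries and between 4.10 and 6.17% in the June libraries.

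Detection followed the same split. Of the 138, December Jeryak libraries listed 16, 18 and 14 above 0 and 7, 5 and 5 at 10 or more, and December yak libraries listed 6, 4 and 5 above 0 and 4, 2 and 4 at 10 or more. June Jeryak libraries listed 106, 118 and 119 above 0, with 101, 117 and 119 at 10 or more. June yak libraries listed 116, 77 and 95 above 0, with 116, 63 and 95 at 10 or more. The second June yak library was thus the lowest of June, and it was also the June library with the lowest value of 1 copy (1.02). No candidate was listed in all 12 libraries, 43 were listed in all 6 June libraries, and 110 (79.7%) were listed in no December library. Of the 28 listed in December, 26 were found in Jeryak and 7 in yak, with 5 in both. Since 1 copy was worth less in each December Jeryak library than in any December yak library, this breed difference in detection was not compared at equal depth. A norm value of 10 was reached in both June groups by 118 candidates, in June Jeryak alone by 5, in June yak alone by 3, in December Jeryak alone by 1 and in both months by 11.

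**Figure D3:**
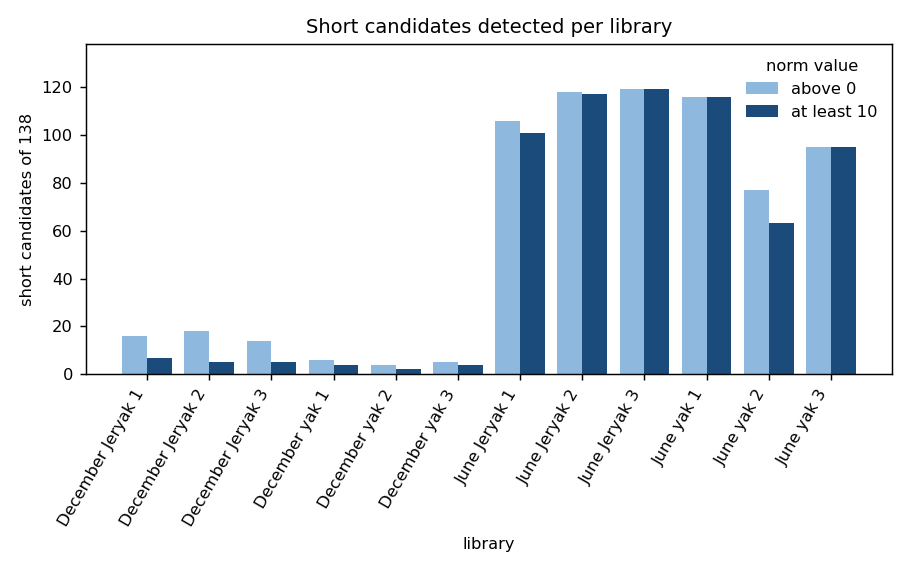
Number of the 138 short candidates (y axis) listed above 0 (light bars) and at a norm value of 10 or more (dark bars) in each of the 12 libraries (x axis). December libraries list 4 to 18 candidates above 0 and June libraries 77 to 119.

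**Figure D4:**
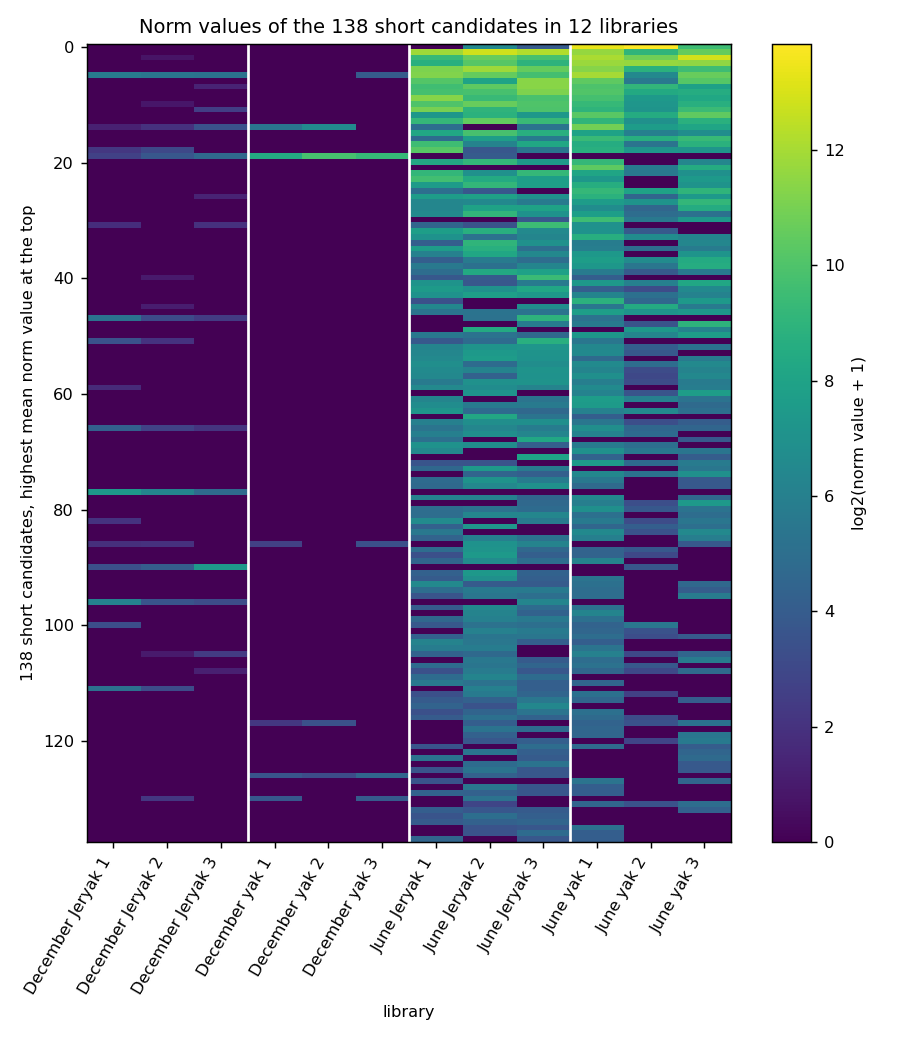
Norm values of the 138 short candidates (rows, highest mean at the top) in the 12 libraries (columns), as log2 of the norm value plus 1. Most rows are at 0 in the 6 December columns, where 110 candidates are not listed, and the few bright December rows include PC-3p-9644_763 in yak and PC-3p-6267_1215 in Jeryak.

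In Jeryak milk, 91 of the 138 short candidates were lower and 2 were higher in December than in June (limma on log2 of the norm value plus 1, Benjamini-Hochberg adjusted p under 0.05 over 620 tested entries). Over all tested entries 40.8% passed in this comparison, 28.9% as lower and 11.9% as higher. The share of short candidates that were lower was 65.9%. The median log2 difference was -4.96 over the short candidates and -0.61 over all tested entries, and the first depends on the 1 added to each value, since most December values were 0. The other classes gave 17 lower and 0 higher of 37 candidates of 20 nt or longer, 14 lower and 50 higher of 251 bta entries, and 57 lower and 22 higher of 194 entries of other species. The December libraries lay below all June libraries for 89 short candidates, against 31% of all tested entries. For 87 of the 91 the December and June libraries did not overlap, and 79 of the 91 were listed at 0 in all 3 December Jeryak libraries.

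In yak milk, 74 of the 138 were lower and 2 were higher in December than in June by the same test. Over all tested entries 34% passed, 22.6% as lower and 11.5% as higher, and 53.6% of the short candidates were lower. The median log2 difference was -4.04 over the short candidates and -0.59 over all tested entries. Non-overlapping and lower in December were 63 short candidates, against 25.5% of all tested entries. Of the 74, 62 did not overlap between months and 72 were listed at 0 in all 3 December yak libraries. Both breeds called 57 candidates lower in December, Jeryak alone 34 and yak alone 17, and none was called in opposite directions. This split between the breeds was not counted over all tested entries, so it is not read as a trait of the short candidates. Since the candidates were chosen on these libraries and 131 of them reached 10 in 3 or more June libraries, the direction of these counts was set in part by the choice.

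Of the 6 most abundant candidates, 5 were called lower in December in both breeds, and PC-5p-384_17873 was called in yak alone. PC-3p-803_8871 was listed at 0 in all 6 December libraries, against 3681, 7354 and 4836 in June Jeryak and 3257, 530 and 1511 in June yak. Its December values were lower than those of June in Jeryak (adjusted p = 4.9e-08, limma) and in yak (adjusted p = 1.3e-07, limma). The 3 Jeryak libraries of June were above the 3 of yak, but this breed difference did not pass the test. PC-3p-1741_4379 was likewise at 0 in December, against 2223, 3575 and 1537 in June Jeryak and 2521, 451 and 746 in June yak (adjusted p = 7.0e-08 in Jeryak and 3.0e-07 in yak, limma). PC-3p-2941_2601 was at 0 in December, against 859, 897 and 2277 in June Jeryak and 1069, 339 and 381 in June yak (adjusted p = 1.1e-07 and 5.2e-07, limma). For both, the June libraries of the breeds overlapped and stood clear of December. PC-3p-803_8871, PC-3p-1741_4379 and PC-3p-2941_2601 reached a norm value of 10 in June libraries alone. The choice of the candidates thus set the direction of their month differences in part. The spread in this fit was shared with the December groups, where these candidates were at 0 without any spread. Over the alternatives their highest adjusted p (limma), in that order, was 1.5e-05, 3.0e-05 and 7.3e-05 in Jeryak. In yak it was 0.0012, 0.0012 and 0.0011.

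A member of the same set that was not at 0 throughout December was PC-5p-1725_4409, which had 0, 0.635 and 0 in December Jeryak and 643, 1587 and 910 in June Jeryak. Its log2 difference was -9.70 (SE 0.62, adjusted p = 1.1e-07, limma). It was listed at 0 in December yak, against 4386, 1839 and 7559 in June yak (adjusted p = 2.5e-08, limma), and the June yak libraries all lay above the June Jeryak libraries. PC-5p-1725_4409 too reached a norm value of 10 in June libraries alone, so the choice of the candidates set its month direction in part. Over the alternatives its highest adjusted p (limma) was 7.3e-05 in Jeryak and 6.1e-04 in yak. PC-5p-1497_4989 kept the highest December level of the abundant candidates, with 50.9, 40.5 and 38.3 in December Jeryak and 2382, 1497 and 831.5 in June Jeryak. In yak it had 0, 0 and 14.9 in December and 4003, 91.7 and 1591 in June. The difference was -5.03 (SE 1.27, adjusted p = 0.0063) in Jeryak and -8.38 (SE 1.27, adjusted p = 1.8e-04) in yak on the log2 scale of limma, with no overlap between the months in either breed. PC-5p-4258_1795, picked after its values were seen, had 0, 0 and 1.62 in December Jeryak, against 771, 1366 and 2670 in June Jeryak. In yak it was listed at 0 in December, against 987, 546 and 236 in June.

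Related sequences differed in how far their proportions held over the June libraries. PC-3p-4437_1717 (18 nt) and PC-3p-35657_171 (19 nt) were both listed at 0 in December. In June the shorter form had 582, 1451 and 654 in Jeryak and 538, 124 and 437 in yak, and the longer form had 129, 225 and 158 in Jeryak and 75.9, 33.6 and 69.8 in yak. The shorter form was thus 3.70 to 7.09 times the longer one in each of the 6 libraries. The pair PC-5p-1462_5078 (18 nt) and PC-5p-3241_2364 (19 nt), which share 18 bases, had a ratio of 2.07 to 8.61. Ratios ranged more widely in PC-5p-63865_82 over PC-5p-143668_26 (0.474 to 6 in 5 libraries) and in PC-5p-26775_241 over PC-3p-58354_92 (1.67 to 10.8 in 5 libraries). All 8 pairs were at 0 in each December library.

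Some short candidates went the other way. PC-3p-6267_1215 was listed at 174, 74.9 and 26.4 in December Jeryak and at 0 in the other 9 libraries, and was the 1 candidate listed in no June library. It made up 40.1 and 37.4% of the summed short candidates in the first 2 December Jeryak libraries. It reached 10 in that group alone, so its direction was set by the choice of the candidates and no p is given. PC-5p-9685_759 had 9.57, 15.6 and 174 in December Jeryak, 0 in December yak, 0 in June Jeryak and 0, 12.2 and 0 in June yak. It was higher in December Jeryak than in June Jeryak (adjusted p = 0.0053, limma), and its December Jeryak libraries were uneven, with replicate 3 the highest. These 2 were the candidates called higher in December in Jeryak.

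In yak the candidates called higher in December were PC-3p-9644_763 and PC-3p-140264_27. PC-3p-9644_763 had 353, 892 and 609 in December yak and was listed at 0 in June yak (adjusted p = 2.3e-05, limma). Its December yak libraries alone met the threshold, so the choice of the candidates set its direction in part. This 1 entry made up 82.7 to 90.8% of the summed short candidates in the December yak libraries. In Jeryak it had 5.50, 12.4 and 24.5 in December and 0, 14.7 and 0 in June, where the months overlapped and the test was not passed. PC-3p-140264_27 had 11.7, 8.17 and 22.4 in December yak and was at 0 in June yak (adjusted p = 0.013, limma, and 0.051 without December yak replicate 3, with 0.0010 to 0.051 over the alternatives). In Jeryak it was at 0 in December and at 0, 18.9 and 12.3 in June, where the months overlapped and the test was not passed (adjusted p = 0.057, limma).

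Between breeds in December 2 candidates were higher and 1 was lower in Jeryak than in yak, and 110 were listed at 0 in both groups. Over all tested entries 5.97% passed, 1.94% as higher and 4.03% as lower. PC-3p-6267_1215, which was included through December Jeryak alone, and PC-5p-9685_759 (adjusted p = 0.027, limma) were higher in Jeryak, with yak listed at 0. PC-3p-9644_763 was lower in Jeryak, with a log2 difference of -5.47 (SE 1.06, adjusted p = 0.0089, limma). The call of PC-5p-9685_759 was lost in 8 of 20, among them leaving out Dec_JY replicate 2 or 3 or any of the Dec_Y libraries (adjusted p 0.0015 to 0.10), and that of PC-3p-9644_763 was lost on leaving out Dec_JY replicate 1 or Dec_Y replicate 2 or 3 (adjusted p 7.6e-05 to 0.063). Without December yak replicate 2 the count of calls fell to 1, and it was 5 with library totals, no minimum or the 6 December libraries alone and 8 with precision weights.

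Between breeds in June 96 of the 138 had a higher mean in Jeryak, while single calls went both ways. The 96 include the 5 that reached 10 in June Jeryak alone, and the share over all tested entries was not counted. By the test 5 were higher and 7 were lower in Jeryak than in yak, and 5% of all tested entries passed (2.58% as higher, 2.42% as lower). The median log2 difference was 1.52 over the short candidates and 0.35 over all tested entries. The libraries of the breeds did not overlap for 16 candidates that were higher and 16 that were lower in Jeryak (11.6% each), against 7.9% and 7.42% of all tested entries. The spread in this fit was shared with the December groups, where most of these entries are at 0 without any spread. With only the 6 June libraries in the fit 1 of the 12 calls was left, PC-5p-145322_26 (named after its values were seen and included through June Jeryak alone), which had 14.8, 18.9 and 22.2 in June Jeryak and 0 in June yak. The count was 30 without June yak replicate 1 (24 higher, 6 lower), 19 without June yak replicate 2 (5 higher, 14 lower) and 26 with a pseudocount of 10 (12 higher, 14 lower).

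The largest June breed difference belonged to PC-5p-384_17873, the most abundant short candidate. It had 0, 88.4 and 14.8 in June Jeryak, against 10709, 14613 and 738 in June yak. The June yak libraries alone met the threshold, so the choice of the candidates set its direction in part. Its log2 difference was -8.76 (SE 1.45, adjusted p = 0.0026, limma), the libraries of the breeds did not overlap, and over the alternatives the adjusted p was 3.6e-04 to 0.19, the highest with the 6 June libraries alone. In the second June yak library it alone made up 56.4% of the summed short candidates. It made up 21.3% in the first June yak library and 2.51% in the last, where PC-5p-1725_4409 was the highest at 25.7%. In June Jeryak the highest candidate of each library was PC-3p-803_8871, at 13.6 to 21.4%.

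PC-3p-9570_769 was listed at 0 in June Jeryak, against 1340, 52.5 and 360 in June yak, the only group in which it reached 10, so no p is given. PC-3p-21242_316 had 0, 0 and 12.3 in June Jeryak, against 752, 47.9 and 169 in June yak, a log2 difference of -6.28 (SE 1.18, adjusted p = 0.0064, limma, 0.0025 to 0.25 over the alternatives). Its 12.3 stood for 5 copies in that library. The June yak libraries alone met the threshold, so the choice of the candidates set its direction in part. In both the Jeryak libraries lay below all yak libraries, and both lost their call with the 6 June libraries alone. PC-5p-1462_5078 had 418, 1221 and 491 in June Jeryak and 3406, 3191 and 2931 in June yak, a log2 difference of -2.33 (SE 0.55, adjusted p = 0.030, limma). Its libraries did not overlap either, but the call was lost in 6 of 20 alternatives, among them without June Jeryak replicate 1 or 3 and without June yak replicate 3 (adjusted p 0.0054 to 0.14). The other 3 lower in Jeryak were PC-3p-7667_976, PC-5p-24163_273 and PC-3p-27019_239. Of these, PC-3p-27019_239 reached 10 in June yak alone and was included through it, so the choice of the candidates set its direction.

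The 5 candidates higher in June Jeryak were low and were all listed at 0 in June yak. They are the 5 that reached 10 in June Jeryak alone, so the choice of the candidates set their direction and no p is given. In June Jeryak PC-5p-56366_96 had 18.5, 164 and 19.7, PC-5p-95412_48 had 27.7, 75.8 and 27.1 and PC-5p-123987_33 had 20.3, 10.5 and 83.9. The Jeryak means of the 5 were 18.6 to 67.5, each above what 5 copies were worth in any June yak library. The highest single value came from a different Jeryak library in PC-5p-123987_33 than in the other 2 named here.

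**Figure D5:**
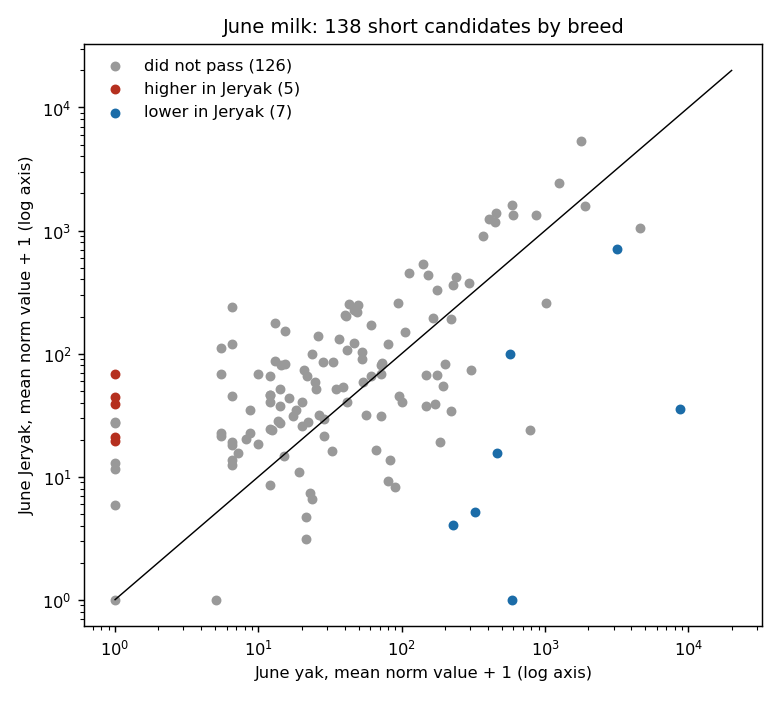
Mean norm value plus 1 of the 138 short candidates in June Jeryak (y axis) and June yak (x axis), both on log axes, with the line of equality. Of the points, 5 passed as higher in Jeryak (all at 0 in yak), 7 as lower in Jeryak and 126 did not pass. PC-5p-384_17873 is the point at a yak mean of 8687.

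The direct test of whether the month difference differed between Jeryak and yak was passed by 11 of the 138 (4 with a higher and 7 with a lower December minus June difference in Jeryak), and by 5.48% of all tested entries (1.61% higher, 3.87% lower). This count fell to 2 without December Jeryak replicate 1, to 3 without replicate 2 and to 4 without replicate 3. It was 6, 4 and 3 without December yak replicates 1, 2 and 3, and 19 without June yak replicate 1.

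At the edge of the threshold, PC-5p-110897_39 had 10.2 as the lowest of its 3 highest values and PC-3p-170653_21 had 10.5, while PC-5p-269329_11 and PC-5p-623767_5 stayed outside at 9.24. PC-5p-110897_39 had 0, 6.32 and 0 in June Jeryak and 21.5, 10.2 and 29.5 in June yak, and PC-3p-170653_21 had 0, 10.5 and 27.1 in June Jeryak and 16.5, 0 and 0 in June yak. Of the 823 candidates of 18 or 19 nt, 570 (69.3%) were listed in 1 library, of which 238 were found in June Jeryak replicate 2 and 177 in June Jeryak replicate 3. By month 80 were listed in December alone, 702 in June alone and 41 in both. The threshold left out 34 candidates that were listed in 3 or more libraries, and 23 of them were listed in December Jeryak, where 10 stands for the most copies. When every candidate listed in 3 libraries was taken at any value, an alternative chosen after seeing the data, 172 were kept, and 12 were higher and 3 lower in Jeryak than in yak in December. Of the 12, 11 were listed at 0 in all December yak libraries, and 6 had a December Jeryak mean below what 5 copies were worth in the December yak library with the highest value of 1 copy. Those of the 12 that were listed in December Jeryak alone were kept through that group, so the choice set their direction. The share of the 947 entries tested this way that passed is not given, so the counts are not read as a breed difference.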

How the data were processed

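The authors trimmed adapters, dropped low-complexity reads and those hitting mRNA, Repbase or RFam, matched unique sequences to miRBase precursors with ACGT101-miR, and folded the remaining ones on a genome to give PC candidates. The sources used here do not state the build of that genome. The deposited norm values, a signal per entry, are copy numbers, with reads of several matches shared out, multiplied by 1 correction factor per library. Their sums per library are not fixed. Of 2264 lines 1 was empty and is not reported here.

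The value of 1 copy was read from the steps between candidates' values (whole multiples within 0.001). Over all entries 73.7 to 85.9% of the listed values per library were whole multiples of 1 copy and the rest were not, so no count model was used. The 620 entries at a norm value of 10 or more in 3 or more of 12 libraries were fitted as log2 of the norm value plus 1 with limma 3.58.1 in R 4.3.3 (trend, 1 mean per group, all 12 libraries). Fold changes on this scale understate low entries, and where a group is listed at 0 throughout, none is given. Tables were made with Python 3.11.15 and pandas 2.3.3. The limma fit was tested on simulated normal values, which did not include groups at 0 without any spread.

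Named were the 6 highest candidates, up to 3 per direction and comparison that passed, did not overlap and changed most, up to 2 per direction of the interaction, those sharing 14 bases with the highest 6, and the candidates next to the threshold. The short candidates, lists and tests were chosen with earlier results of these data known. Alternatives were another pseudocount, minimum, scaling, weighting, replicate block, the 6 libraries of a comparison and leaving out each library.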

Additional observations from a re-analysis of the deposited data

Results flagged for a closer look

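For 9 named short candidates the December minus June difference in Jeryak differed from that in yak by the interaction test of limma (adjusted p, over 620 entries). In those listed at 0 in all December libraries the test rests on June. These were PC-3p-9570_769 (adjusted p = 0.0097), PC-5p-384_17873 (adjusted p = 0.027) and PC-3p-21242_316 (adjusted p = 0.046), with the June signal in yak, and PC-5p-95412_48 (adjusted p = 0.014), PC-5p-56366_96 (adjusted p = 0.027) and PC-5p-123987_33 (adjusted p = 0.033), with the June signal in Jeryak. PC-3p-6267_1215 (adjusted p = 0.011) was listed in December Jeryak alone. PC-3p-9644_763 (adjusted p = 0.024) was high in December yak alone. PC-3p-9570_769, PC-5p-95412_48, PC-5p-56366_96, PC-5p-123987_33 and PC-3p-6267_1215 each reached a norm value of 10 in 1 group alone and were included through it. The choice of the candidates thus set the direction of their differences, and no p is given for them. PC-5p-384_17873, PC-3p-21242_316 and PC-3p-9644_763 had 10 or more in all 3 libraries of the group where they were high. For these the choice set the direction in part.

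PC-3p-140264_27 (adjusted p = 0.026) had 0, 0 and 0 in December Jeryak against 0, 18.9 and 12.3 in June Jeryak, where the months overlapped, while yak had 11.7, 8.17 and 22.4 in December and 0, 0 and 0 in June. The 4 calls of the other candidates, which reached 10 in more than 1 group, were each lost in 5 to 12 of 19 alternatives.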

How the results depend on the processing

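The 93 month calls in Jeryak and 76 in yak were 86 to 105 and 60 to 84 without one library, 88 and 63 with the 6 libraries of a breed, and 93 and 75 with library totals. The 3 December breed calls became 5 (3 higher) with no minimum, with library totals and with the 6 December libraries, 8 (6 higher) with precision weights, 15 (12 higher) with candidates listed in 3 libraries, and 1 to 4 without one library. The 12 June breed calls became 26 (12 higher) with a pseudocount of 10, 1 with the 6 June libraries and 11 to 30 without one library. The 11 interaction calls became 2 with the replicate block, 23 (14 higher) with candidates listed in 3 libraries and 2 to 19 without one library. Candidates listed in 1 group alone entered the alternative of 3 libraries through that group, so the choice set their direction. The counts of this alternative have no share over all entries beside them and are not read as a result. With the block the other counts were 93, 71, 2 and 11. The replicate numbers did not pair the libraries, since same-number correlations of the deviations were -0.062 to 0.14 and not all above 0.1. Without one library the shares were 0.0377 to 0.0594% in December Jeryak, 0.0918 to 0.141% in December yak, 4.15 to 4.56% in June Jeryak and 4.12 to 5.15% in June yak. With every candidate of 18 or 19 nt they were 0.0812% in December Jeryak and 5.04% in June Jeryak. Candidates at 10 or more per library averaged 5.67, 3.33, 112 and 91.3 in these groups, and 5 to 6, 3 to 4, 109 to 118 and 79 to 105.5 without one library. Above 0 they averaged 16 in December Jeryak and 5 in December yak, and at 20 or more 3.67, 2 and, in June Jeryak, 90.3. Of 44 calls of named candidates, 26 passed under every alternative run, 18 were lost in at least 1 and 0 reversed. They include calls of candidates that reached 10 in 1 group alone, whose direction the choice set. Where a compared group was at 0 throughout, no alternative could reverse a difference between 2 groups. The tally is thus not read as support for these directions. The causes were not tested. With 3 libraries per group and a listed 0 that can stand for 4 copies, differences among candidates near a norm value of 10 were at the limit of detection in most yak and June libraries, though not in December Jeryak, where 10 stands for 37.1 copies or more.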
